A study of Mus musculus with 4 samples.

Results

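The 8 genes described here encode zinc finger transcription regulators that set lymphoid and myeloid lineages: Gata1, Gata2, Gata3, Zfpm1, Zbtb16, Zbtb7b, Bcl11a and Bcl11b. Their accessible regions were taken from a DNase-seq table of lymphoid tissue inducer (LTi) cells, the group 3 innate lymphoid cells that induce lymph nodes and Peyer's patches. A region, called an island, was assigned to a member when the nearest end of a protein-coding gene, within 50 kb, was an end of that member, or when the island overlapped its gene body. The rule found 13 islands of the 16584 in the table. They belonged to 5 members, and Gata1, Gata2 and Bcl11b had none.

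The cells came from C57BL/6 mice in 2 groups with 2 libraries each, Tcf7-KO mice (Tcf7fl/fl with a Cre transgene) and control mice (Tcf7+/+). Tcf7 encodes TCF-1, a transcription factor of lymphocyte development, and the Cre deletes it in the cells in which its driver is or has been active. The sources used here give neither ages nor numbers of mice per library, so separate animals are not shown for the 2 libraries of a group. All 4 libraries were made from 300 sorted cells that were CD127+ and CCR6+ and lacked lineage markers, KLRG1, NK1.1 and NKp46. Each island has a peak-side and a control-side read count, and neither is tied by any label to a genotype, a library or an input. The values below therefore describe accessible regions and the ratio of the sides, and Tcf7-KO mice were not compared with control mice.

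As background, GATA3 is needed to form innate lymphoid cells and is kept at a high level in the group 2 lineage, while GATA1 and GATA2 act in erythroid cells, mast cells and progenitors. FOG-1, encoded by Zfpm1, binds the amino-terminal finger of GATA proteins. PLZF, encoded by Zbtb16, marks a precursor of innate lymphoid cells and innate-like T cells, and ThPOK, encoded by Zbtb7b, directs the CD4 T cell lineage. BCL11B is needed for T cell commitment and for group 2 innate lymphoid cells, and BCL11A for B cells and plasmacytoid dendritic cells.

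Promoter sequences are shown first, because the promoter windows of 3 members lay in islands and those of 4 did not. The windows are 300 bases long, from 250 bases before to 50 after an annotated start, taken from RefSeq (GRCm38.p6, the assembly of mm10), and 7 of the 8 members, all but Zbtb16, matched 1 or 2. They are printed 5′ to 3′ on the strand of the gene, with CpG dinucleotides in capitals. The first 4 windows lay wholly within an island. The last 2 had no island within 50 kb and are shown for contrast, one rich and one poor in CpG.
Gata3 (chr2:9878551-9878850, minus strand): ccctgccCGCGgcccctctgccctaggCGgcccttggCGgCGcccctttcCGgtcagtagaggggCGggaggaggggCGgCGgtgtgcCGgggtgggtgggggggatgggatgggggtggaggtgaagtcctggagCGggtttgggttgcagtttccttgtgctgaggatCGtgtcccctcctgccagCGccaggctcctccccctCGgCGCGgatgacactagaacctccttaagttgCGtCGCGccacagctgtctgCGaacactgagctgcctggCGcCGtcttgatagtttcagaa
Zfpm1 (chr8:122281891-122282190, plus strand): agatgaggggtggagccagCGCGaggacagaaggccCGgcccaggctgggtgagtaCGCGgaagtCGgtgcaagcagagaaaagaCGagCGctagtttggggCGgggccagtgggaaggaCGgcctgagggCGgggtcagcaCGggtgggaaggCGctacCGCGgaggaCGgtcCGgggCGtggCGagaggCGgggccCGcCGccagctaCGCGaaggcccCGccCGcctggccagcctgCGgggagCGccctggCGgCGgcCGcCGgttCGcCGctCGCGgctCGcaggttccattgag
Zbtb7b window 1 (chr3:89393329-89393628, minus strand): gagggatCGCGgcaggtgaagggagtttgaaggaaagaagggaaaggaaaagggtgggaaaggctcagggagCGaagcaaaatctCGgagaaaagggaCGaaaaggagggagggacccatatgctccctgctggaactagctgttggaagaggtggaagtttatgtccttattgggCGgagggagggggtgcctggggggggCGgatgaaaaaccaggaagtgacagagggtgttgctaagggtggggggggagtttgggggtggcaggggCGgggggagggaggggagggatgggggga
Zbtb7b window 2 (chr3:89387622-89387921, minus strand): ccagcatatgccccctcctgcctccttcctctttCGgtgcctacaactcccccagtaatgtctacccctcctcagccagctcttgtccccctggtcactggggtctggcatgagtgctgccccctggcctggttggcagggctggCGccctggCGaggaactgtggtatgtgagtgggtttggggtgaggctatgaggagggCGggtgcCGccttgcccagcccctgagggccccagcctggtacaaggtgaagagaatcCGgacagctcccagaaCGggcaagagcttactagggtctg
Gata2 window 1 (chr6:88193641-88193940, plus strand): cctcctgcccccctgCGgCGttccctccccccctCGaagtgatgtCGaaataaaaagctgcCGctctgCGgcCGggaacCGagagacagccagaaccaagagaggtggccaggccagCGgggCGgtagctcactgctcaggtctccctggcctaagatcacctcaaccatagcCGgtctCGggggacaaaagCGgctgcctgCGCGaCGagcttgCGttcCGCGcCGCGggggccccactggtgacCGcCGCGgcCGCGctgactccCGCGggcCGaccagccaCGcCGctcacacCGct
Bcl11b (chr12:108003365-108003664, minus strand): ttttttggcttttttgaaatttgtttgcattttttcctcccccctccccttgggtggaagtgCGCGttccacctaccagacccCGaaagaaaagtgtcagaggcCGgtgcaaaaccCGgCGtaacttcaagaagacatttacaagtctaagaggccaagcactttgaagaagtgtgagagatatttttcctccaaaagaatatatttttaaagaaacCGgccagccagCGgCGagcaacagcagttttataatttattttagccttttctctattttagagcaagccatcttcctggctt

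CpG content differed widely among the windows printed above. Zfpm1 held 37 CpG dinucleotides, Gata3 held 22, and the windows of Zbtb7b held 8 and 7. Over all 21263 windows of protein-coding genes the median was 13, and 45.5% overlapped an island. The share was 3.45% in windows with 0 to 4 CpG, 19.7% with 5 to 9, 62.5% with 10 to 19, 78.8% with 20 to 29 and 80.3% with 30 or more. Against that background, both Zbtb7b windows lay in islands within a class where 19.7% of windows do. Gata2 went the other way, since its windows held 32 and 29 CpG and neither overlapped an island. The window of Bcl11a, with 23 CpG, lay 845 bp outside the only island of the gene. Gata1, with 4 CpG, and Bcl11b, with 9, fell in classes where most windows of other genes lie outside islands too.

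**Figure D1:**
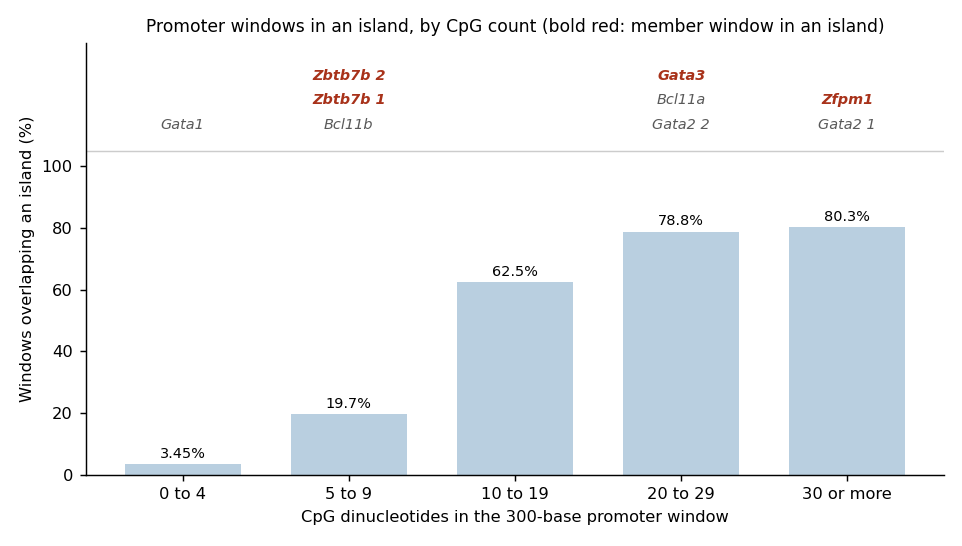
Share of promoter windows of protein-coding genes that overlap an island (vertical axis, percent) by the number of CpG dinucleotides in the 300-base window (horizontal axis), with the 9 member windows named above their class. Windows of Gata3, Zfpm1 and Zbtb7b (bold red) lay in islands, those of Gata1, Gata2, Bcl11a and Bcl11b (grey) did not, and the share rises from 3.45% in the lowest class to 80.3% in the highest.

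Few of the motifs searched occurred in the 9 member windows. On both strands, a GATA site (AGATAA or AGATAG, and likewise TGATAA or TGATAG) was found in 1 window, a TCF site (CTTTGAA or CTTTGAT) in 1, a RUNX site (TGTGGT) in 1, and a ROR element (AGGTCA) or an ETS site (CCGGAAG) in 0. The GATA match was TGATAG, starting 36 bases after the Gata3 start site. The RUNX match lay 89 bases before the second Zbtb7b start site, and the TCF match, CTTTGAA, 89 bases before that of Bcl11b, a window outside islands. Of all windows, 26.0% held a GATA match, 7.57% a TCF match, 15.0% a RUNX match, 14.7% a ROR element and 11.6% an ETS match. These motifs do not overlap each other in the member windows.

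Among the 13 islands, 6 lay within 1 kb of a gene end, 6 lay elsewhere in a gene and 1 lay between genes, and 11 overlapped the body of their own gene. In all, they covered 42.6 kb, with 377 peak-side and 555 control-side reads. The authors' fold divides the peak-side count by 0.345 times the control-side count. An island counts as called below an FDR of 0.05 in the authors' deposited table. By that measure 12 of the 13 islands (92.3%) were called in the authors' deposited table, beside 82.3% of all islands. The median fold was 2.03 over the 13 islands and 2.01 over all islands. Intervals below are exact 95% counting intervals of the fold. They cover counting error only, since the table has no replicate values and reads are not independent molecules. Fewer cells with an open region and less cutting per cell cannot be told apart in such bulk data.

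**Figure D2:**
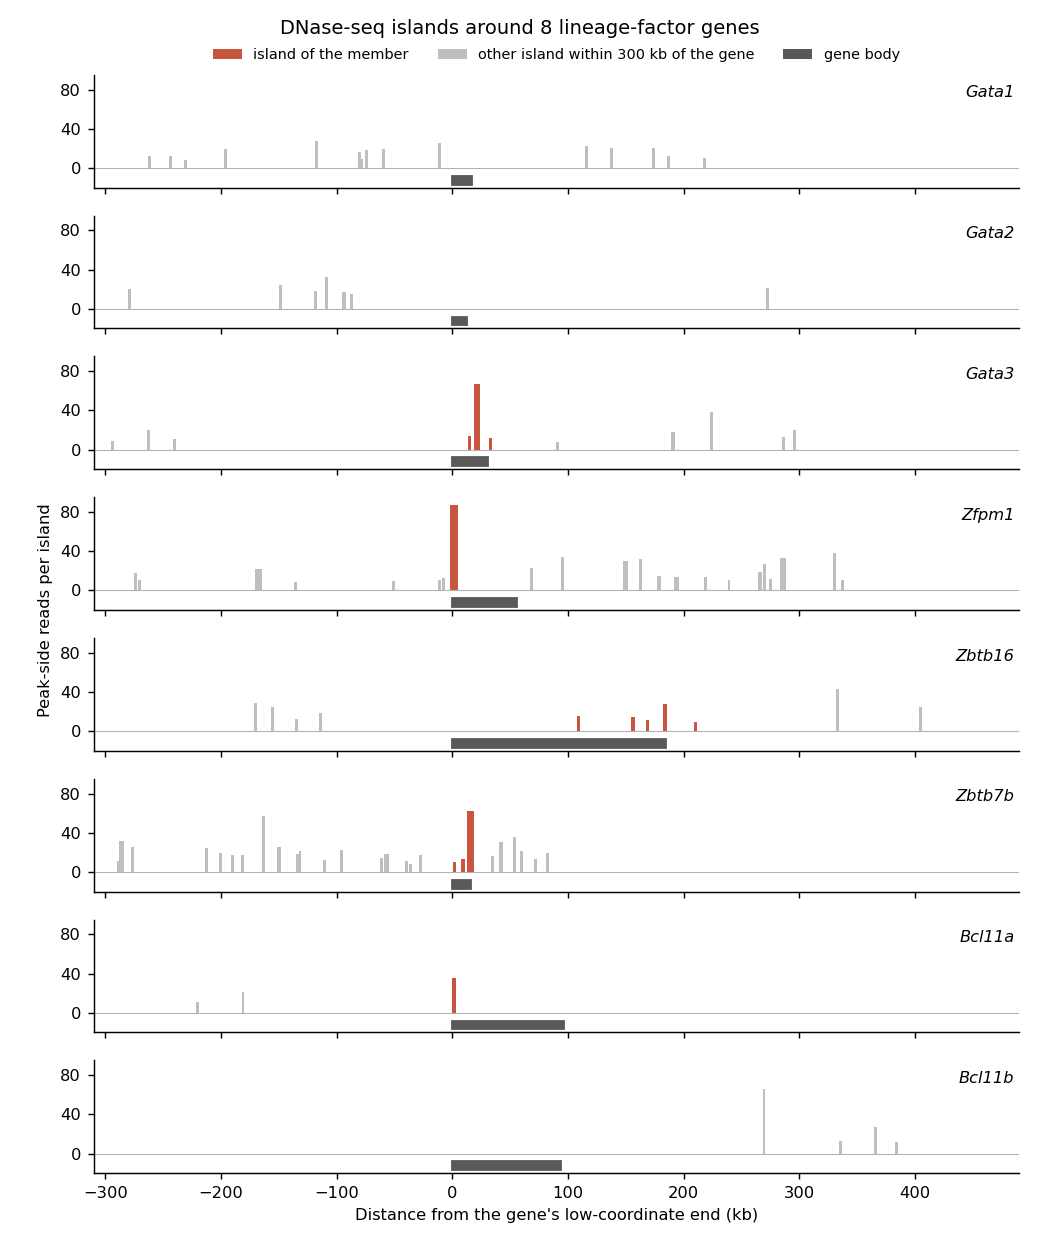
Islands around the 8 genes, drawn as bars at their distance in kb from the low-coordinate end of the gene (horizontal axis, narrow islands widened to 2.5 kb) with their peak-side reads as height. Red bars are islands of the member, pale grey bars other islands within 300 kb, and dark bars the gene body. Gata1, Gata2 and Bcl11b have no red bar, and the tallest red bars are those of Zfpm1 (87 reads), Gata3 (67 reads) and Zbtb7b (62 reads).

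Of Gata1, Gata2 and Gata3, only Gata3 had islands. Gata3 lies on chromosome 2 (9857078 to 9887953, minus strand) and had 3 islands with 93 peak-side and 100 control-side reads. The widest, at chr2:9875601-9881200, spans 5.6 kb over the start site and had 67 peak-side and 80 control-side reads. Its fold was 2.43 (1.73 to 3.40). An island within the gene, centred 6.60 kb downstream of the start site (chr2:9870801-9873200), had 14 and 11 reads on the peak and control sides. Another lay 0.648 kb beyond the gene's high-coordinate end and 11.0 kb upstream of the start site (chr2:9888601-9890600), with 12 and 9 reads. In both of these smaller islands the peak side had more reads than the unscaled control side, which was not so in the start site island. Their folds were 3.69 (1.56 to 8.99) and 3.87 (1.50 to 10.4), and the intervals of all 3 islands overlap. Pooled, the smaller islands had a fold 1.55 times that of the start site island (0.756 to 3.21), so a difference was not detectable at these counts. The pooled fold of Gata3 was 2.70 (2.01 to 3.61). Each of its 3 islands was called in the authors' deposited table, beside 82.3% of all islands.

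Gata1 and Gata2 had no island. The nearest one to Gata1 (chromosome X, 7959260 to 7976663) lay 10.9 kb away over an end of Hdac6, a cytoplasmic deacetylase gene, with 25 peak-side and 38 control-side reads. For Gata2 (chromosome 6, 88193891 to 88207032) it lay 86.7 kb away near Rpn1, with 15 and 34 reads. Of genes within 1.5 times the length of Gata2, 60.6% had an island, and for Gata1 the share was 62.0%. Since no island has fewer than 8 peak-side reads, weaker sites at these genes would not be listed.

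Zfpm1, the gene for the GATA cofactor FOG-1, had the island with the most reads of the 13. It lies on chromosome 8 (122281856 to 122337862, plus strand), and the island at chr8:122280201-122286400 spans 6.2 kb over its start site. This island had 87 peak-side and 142 control-side reads, and 99.6% of all islands had fewer peak-side reads. The fold was 1.78 (1.34 to 2.34). The rest of the 56.0 kb gene held no further island. On either side of Zfpm1, 4 islands lay within 50 kb but nearer to ends of Zfp469, Trhr2 or Gm39270. The closest of them, 7.86 kb before the gene, had 13 and 20 reads on the peak and control sides. One 11.5 kb beyond the gene had 23 and 15 reads, at a fold of 4.45 (2.22 to 9.17), whose interval overlaps that of the start site island slightly.

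Zbtb16 had the most islands, 5, spread over the high-coordinate part of a long gene. It lies on chromosome 9 (48651797 to 48836225, 184 kb). Of 1231 genes within 1.5 times its length, 95.7% had fewer islands, and their mean was 1.32. The island over its high-coordinate end (chr9:48833601-48837800) had 28 peak-side and 32 control-side reads and a fold of 2.54 (1.47 to 4.35). Within the gene, islands lay 15.4, 26.6 and 74.8 kb from that end. The deepest, at chr9:48759401-48761400, had 15 and 10 reads on the peak and control sides. It was the one Zbtb16 island with more reads on the peak side before scaling, and its fold was 4.35 (1.83 to 10.8), the largest of the 13 islands. The middle one (chr9:48806601-48809600) had 14 and 16 reads, at a fold of 2.54 (1.15 to 5.55). The island at chr9:48819001-48820800 had 11 peak-side and 26 control-side reads. Its fold was 1.23 (0.547 to 2.57), and this was the only one of the 13 that was not called in the authors' deposited table (FDR 0.204). The fifth lay between genes, 24.2 kb beyond the end (chr9:48860401-48860800), with 9 and 14 reads on the peak and control sides in 0.4 kb and a fold of 1.86 (0.712 to 4.63). No island lay in the low-coordinate 108 kb of the gene, where the small gene Gm32280 also sits. Together the 5 islands had 77 peak-side and 98 control-side reads and a pooled fold of 2.28 (1.67 to 3.10).

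Zbtb7b, the ThPOK gene, had 3 islands, and both of its annotated start sites lay in one. It is a gene of 16.03 kb on chromosome 3 (89377644 to 89393673, minus strand) with many close neighbours. The island over the upstream start site (chr3:89390601-89396600) spans 6.0 kb and had 62 peak-side and 127 control-side reads, with a fold of 1.42 (1.03 to 1.93). The island over the downstream start site (chr3:89384801-89388600) had 13 peak-side and 22 control-side reads in 3.8 kb, at a fold of 1.71 (0.793 to 3.56). At 3.42 peak-side reads per kb it was among the thinnest of the table, since 1.03% of islands had fewer. The third island (chr3:89378601-89380200), near the low-coordinate end, had 10 and 16 reads, at a fold of 1.81 (0.735 to 4.25). It lay 957 bp from that end and 958 bp from an end of Dcst2, so its assignment by the nearest end rests on 1 bp, although it also lies within the body of Zbtb7b. In all 3 islands the control side had more reads before scaling. The pooled fold was 1.49 (1.14 to 1.95), on 85 peak-side and 165 control-side reads. Each of the 3 islands was called in the authors' deposited table, beside 82.3% of all islands. At an FDR under 0.01, only the island over the upstream start site stayed called, beside 64.2% of all islands. The same held with a Poisson tail that includes the observed count, beside 75.7% of all islands. A further 7 islands within 50 kb, with 8 to 36 peak-side reads, were nearer to ends of other genes.

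Of the BCL11 genes, Bcl11a had 1 island and Bcl11b none. Bcl11a lies on chromosome 11 (24076564 to 24173558, plus strand), and its island (chr11:24076001-24079600) covers the low-coordinate end of the gene but stops before the start site of the promoter window. It had 35 peak-side and 50 control-side reads and a fold of 2.03 (1.28 to 3.19). The nearest island to Bcl11b (chromosome 12, 107910403 to 108004145) lay 174 kb away, over an end of Setd3, with 66 and 73 reads on the peak and control sides. Of protein-coding genes, 82.4% had an island closer than that. Genes of a like length had an island in 71.1% of cases for Bcl11b and 71.2% for Bcl11a.

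**Figure D3:**
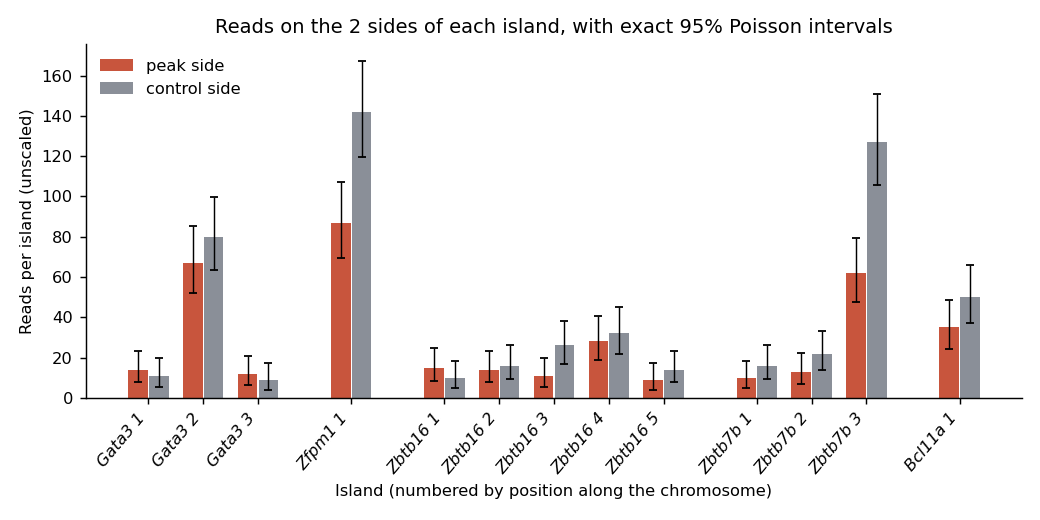
Reads on the peak side (red) and the control side (grey) of the 13 islands, unscaled, with exact 95% Poisson intervals as error bars and islands numbered along the chromosome. Zfpm1 island 1, Gata3 island 2 and Zbtb7b island 3, each over a start site, stand above the rest, and the peak side is above the control side in Gata3 islands 1 and 3 and Zbtb16 island 1.

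By peak-side reads the order was Gata3 with 93, Zfpm1 with 87, Zbtb7b with 85, Zbtb16 with 77 and Bcl11a with 35. The first 4 lie within counting error of each other. Per kb of island, a scale that allows for their width, the order was Zfpm1 with 14.0 peak-side reads, Bcl11a with 9.72, Gata3 with 9.30, Zbtb7b with 7.46 and Zbtb16 with 6.75. The median of single islands was 10.6 per kb over the whole table, and that of islands of 5 kb or more was 6.67. Singly, the Gata3 start site island had 12.0 per kb, above the median of all islands.

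By pooled fold the order was Gata3, Zbtb16, Bcl11a, Zfpm1 and Zbtb7b. The level of each fold rests on the scaling of the control side: scaled by the median ratio, the pooled fold of Gata3 was 1.34, those of Zfpm1 and Zbtb7b turned below 1 (0.885 and 0.744), and 1 of the 13 islands was called. The ratio between the folds of 2 members does not depend on the scaling of the control side. Gata3 stood 1.80 times above Zbtb7b (95% interval 1.21 to 2.70), and this interval still excluded 1 when widened for the 10 pairs compared (99.5% interval 1.02 to 3.20). The 95% intervals of Gata3 over Zfpm1 (1.52, 1.01 to 2.28) and Zbtb16 over Zbtb7b (1.52, 1.01 to 2.31) excluded 1 as well, but the 99.5% intervals did not (0.855 to 2.70 and 0.847 to 2.75). For the other 7 pairs the 95% interval held 1, and no neighbours in the order differed beyond counting error. Against all other islands, the pooled fold was 1.41 times as high for Gata3 (1.06 to 1.87), whose reads lie mostly in an island classed as gene body, and 0.782 times as high for Zbtb7b (0.602 to 1.02). For the 13 islands together it was 1.03 times as high (0.904 to 1.17). Unlike those of the pairs, the intervals against all other islands were not widened for the number of comparisons. Folds also differ by place, with a median of 2.34 over all gene body islands and 1.86 at gene ends. They differ by read count too. The median was 2.21 over all islands with 8 to 16 peak-side reads and 1.91 over those with 17 to 50. The Gata3 start site island, with 72.0% of the gene's peak-side reads, had a fold above 53.4% of gene body islands. Its fold of 2.43 was above the upper quartile of islands at gene ends, which was 2.27. The intervals of these ratios compare the reads of 2 sides, not conditions.

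**Figure D4:**
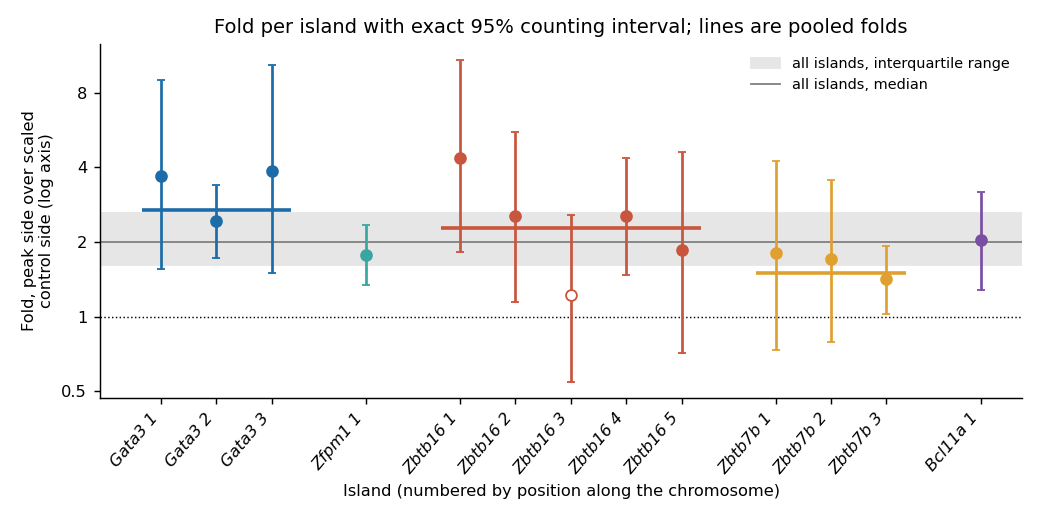
Fold of peak-side over scaled control-side reads (vertical log axis) for each of the 13 islands with exact 95% counting intervals. Short coloured lines are pooled folds of members with several islands, the grey band and line the interquartile range and median of all islands, and the open circle is the island that was not called. Pooled folds run from 2.70 for Gata3 to 1.49 for Zbtb7b, and most intervals overlap.

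Of the 4 islands over the start site of a promoter window, 3 were among the broadest of the table. Those of Gata3, Zfpm1 and the upstream start of Zbtb7b span 5.6, 6.2 and 6.0 kb, and 98.8%, 99.3% and 99.2% of all islands were narrower. Of all islands, 374 (2.26%) had 5 kb or more, against 3 of these 13. They were less unusual in density, with 12.0, 14.0 and 10.3 peak-side reads per kb, while the islands of 5 kb or more had a median of 6.67. The island over the downstream start of Zbtb7b was narrower, at 3.8 kb (wider than 91.6% of islands), and held 3.42 reads per kb. The Zbtb16 end island (4.2 kb) and the Bcl11a island (3.6 kb) were wider than 94.5% and 89.6% of islands. SICER joins neighbouring enriched windows, so a wide island can hold several open sites.

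**Figure D5:**
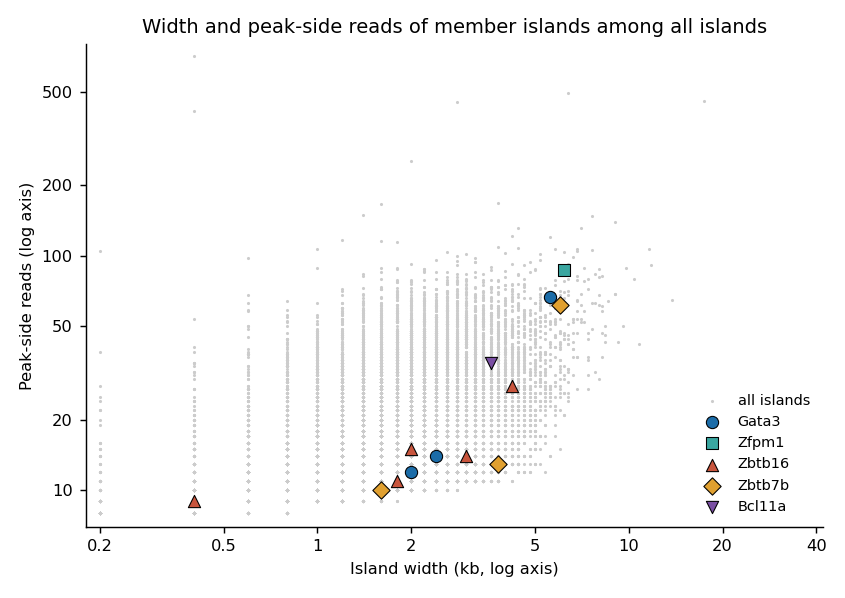
Width (horizontal log axis, kb) and peak-side reads (vertical log axis) of the 13 islands as coloured symbols, over all islands in grey; 9 islands with over 800 reads are outside the axes. Gata3 island 2, Zfpm1 island 1 and Zbtb7b island 3 sit together at 5.6 to 6.2 kb and 62 to 87 reads, and Zbtb7b island 2, also over a start site, lies apart at 3.8 kb and 13 reads.

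Genes whose products act with the members mostly had islands. Among all 21887 protein-coding genes outside mitochondrial DNA, 12071 (55.2%) had an island by the same rule, against 58 of the 62 genes on 6 lists of partners and relatives. These lists were chosen with earlier results of these data known, so the share describes them and tests nothing. They were not matched for CpG content either, and 80.3% of all windows with 30 or more CpG overlapped an island. All 13 NuRD subunit genes, whose complex is recruited by FOG-1 and BCL11 proteins, had an island. Of their 23 islands, 20 (87.0%) were called in the authors' deposited table, beside 82.3% of all islands. Their median fold was 2.07. Chd4 and Rbbp7 had no called island, so 11 of the 13 genes had a called one. Gatad2a had 119 peak-side and 176 control-side reads, Mbd3 had 84 and 136, and Mbd2 had 75 and 102. All 8 genes of GATA complex partners had an island, with a median fold of 2.77. Of 23 islands, 19 (82.6%, near the share of all islands) were called in the authors' deposited table, in 7 of the 8 genes. The ones with the most reads were Runx1 (117 peak-side and 168 control-side reads), Lmo4 (100 and 127) and Ldb1 (50 and 63). Of 5 other GATA and FOG genes, Gata4 (26 and 33 reads) and Trps1 (32 and 39) had islands, and Gata5, Gata6 and Zfpm2 had none.

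The relatives and partners of the BTB factors were covered as fully. All 17 BTB zinc finger genes on the list, which is a part of the family, had an island, with a median fold of 1.90. Of their 24 islands, 21 (87.5%) were called in the authors' deposited table, in 16 of the 17 genes, beside 82.3% of all islands. Bcl6, a repressor of follicular helper T cells and germinal centre B cells, had 82 peak-side and 144 control-side reads, Zbtb38 had 81 and 90, and Zbtb20 had 79 and 108. Of the other Zbtb7 genes on the list, Zbtb7a had 73 and 126 reads in 1 island, and Zbtb7c had 52 and 68 in 2. The 8 partners of PLZF, ThPOK and BCL11B all had islands, with a median fold of 1.99. Of 25 islands, 21 (84.0%, near the share of all islands) were called in the authors' deposited table. Runx3 led with 169 and 219 reads, ahead of Sin3a with 130 and 203. Of 12 other lineage factors of innate lymphoid cells, 11 had an island (median fold 2.11), led by Rora (157 peak-side and 157 control-side reads), Ets1 (149 and 214) and Id2 (88 and 152), and Tbx21 had none.

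The labelled cell type was set beside marker genes, in lists chosen with earlier results of these data known. Of 15 LTi and group 3 markers, 14 had an island, with a median fold of 2.69, led by Il1r1 (129 peak-side and 103 control-side reads), Tcf7 (102 and 110) and Kit (95 and 89). Ccr6, one of the sort markers, had none. The sorted cells lacked KLRG1 and NK1.1, but the genes of these markers, Klrg1 and Klrb1c, on lists below, had islands. Klrg1 had 2, each called in the authors' deposited table. Klrb1c had 3, of which 1 was called there, beside 82.3% of all islands. The gene of NKp46, which the sorted cells also lacked, was on none of the lists.

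Lists for the other lineages in which the 8 factors act had islands at a smaller share of their genes than the LTi list, and 2 of them, group 2 (53.3%) and plasmacytoid dendritic cells (62.5%), lay near the 55.2% of all genes. Their median folds were 3.07 for B cell, 3.05 for mast cell and basophil, 2.65 for group 2, 2.28 for plasmacytoid dendritic cell, 1.76 for T cell, 1.64 for erythroid and megakaryocyte and 1.54 for innate-like T cell genes, so some were as high as that of the LTi list. Of 15 group 2 genes, 8 had an island, with Rora, Gata3 (93 and 100 reads) and Klrg1 (34 and 33) leading, and Il4, Il13, Il17rb, Areg, Icos, Ptgdr2 and Bcl11b had none. Of 11 T cell markers, Cd247 (50 and 84 reads) and Cd3d (17 and 17) had islands, and Cd3e, Cd3g, Cd4, Cd5, Cd8a, Cd8b1, Cd28, Trat1 and Themis had none. Of 7 genes on the innate-like T cell list 3 had one, Klrb1c (86 and 146 reads), Egr2 (43 and 81) and Cd1d1 (11 and 15). Cd1d1 encodes a molecule that presents antigen to such T cells and is not a marker of them. Slamf1, Slamf6, Sh2d1a and Il4 had none. Of 10 B cell markers 3 had one, Pax5 (22 and 25 reads), Cd79b (18 and 17) and Ebf1 (9 and 4), and Cd79a, Ms4a1, Cr2, Blnk, Fcrla and Pou2af1 were among those without. Plasmacytoid dendritic cell markers had islands at 5 of 8, led by Runx2 (66 and 80 reads), Tcf4 (49 and 87) and Bst2 (29 and 36), without Siglech, Ccr9 and Klk1. Of 12 erythroid and megakaryocyte markers 4 had one, Nfe2 (19 and 37 reads), Itga2b (13 and 23), Tal1 (13 and 9) and Gp1bb (10 and 19), and Klf1, Epor, Hbb-bs, Hba-a1, Alas2, Gfi1b and Pf4 were among those without. Of 8 mast cell and basophil markers, Mitf (37 and 36 reads) and Hdc (21 and 24) had islands, while Ms4a2, Fcer1a, Cpa3, Mcpt4, Mcpt8 and Tpsb2 had none. What such cells contribute to the member islands was not tested.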

How the data were processed

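DNase-seq libraries of LTi cells came from 2 Tcf7-KO and 2 control samples. The tools named are Bowtie2 2.4.2 and SICER 2.0, with mm10, per the submitters' processing notes. Per the file headers, the authors deposited 1 table of islands with raw read counts on a peak and a control side, a p-value, an FDR and a fold (ratio). The counts hold 425134 peak-side and 645087 control-side reads over the islands, and the depth of each library is unknown. Recomputing the fold and p-value of all 16584 islands gave the deposited values (tolerance 1e-06). The p-value is a Poisson tail over the control side times 0.345, counting only reads above the observed number.

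Islands were assigned with a RefSeq gene table of GRCm38.p6, and coordinates are 1-based mm10. Fold intervals are exact (Clopper-Pearson, scipy 1.17.1) and were tested on simulated data. The simulated counts were not filtered for enrichment or a read minimum. Coverage for islands listed because of their peak-side reads was therefore not tested. Ratios between members, and between islands of a member, have exact conditional intervals. Ratios against all other islands have approximate intervals of the sample odds ratio. The ratio intervals were not tested on simulated data. Alternatives changed the assignment window, the scaling, the read minimum and the threshold. The planned test of Tcf7-KO against control mice was not run, since columns carry no library. Members and gene lists were chosen with earlier results of these data known. Every member island is named, and in each list the 3 genes with the most peak-side reads and, where 6 or fewer, those without an island. Outside that rule, and chosen after their values were seen, are Zbtb7a, Zbtb7c, Chd4, Rbbp7, Gp1bb and the genes without an island in the group 2, T cell, B cell and erythroid lists. Some genes of these lists are counted but not reported by name here, and neither is the driver of the Cre.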

Additional observations from a re-analysis of the deposited data

How the results depend on the processing

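The number of members with an island was 5 under windows of 10 and 100 kb, in gene bodies alone, by island centre and with at least 20 reads, and 6 when every island within 50 kb of a gene body counted, a rule chosen after seeing the data. That rule raised the islands to 25 and the called ones to 21. With at least 20 peak-side reads 5 islands were left, all of them called. A fold over 2 beside the FDR left 7 called islands, beside 50.4% of all islands. The scaling of the control side decided the level of every fold. With the control side scaled on all island reads or on the median ratio, which both centre the table near a fold of 1 by construction, 1 island was called under each, the deepest of Zbtb16, beside 9.19% and 6.61% of all islands. The median fold was then 1.06 or 1.01. Pooled folds were 1.41 or 1.34 for Gata3, 1.19 or 1.13 for Zbtb16 and 1.06 or 1.01 for Bcl11a, and turned below 1 for Zfpm1 (0.930 or 0.885) and Zbtb7b (0.782 or 0.744). With a Poisson tail that includes the observed count, also chosen after seeing the data, 9 islands were called beside 75.7% of all islands, and an FDR under 0.01 gave 9 beside 64.2%. Ranking by reads per kb changed the rank of 5 members. Leave-one-out and genotype fits were not run. No paired analysis was possible because neither column names a library or a replicate. Depth limits all of this: intervals of 4 of the 13 islands reach below 1.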

Other observations

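Within the 300 kb searched on each side of the gene, Gata3 was the closest gene to 3 more islands far beyond the 50 kb limit, on its 3′ side. They were centred 261, 285 and 316 kb from the Gata3 start site and had 11, 20 and 9 peak-side reads, against 7, 18 and 2 control-side reads. In each the peak side had more reads before scaling, as in the smaller islands at the gene. Over all islands with 8 to 16 peak-side reads, the median fold was 2.21 and the upper quartile 3.14. Their folds were 4.56 (1.61 to 13.9), 3.22 (1.62 to 6.46) and 13.1 (2.70 to 124). The authors' deposited table calls each of the 3, beside 82.3% of all islands. The last of these rests on 2 control-side reads. As background, an enhancer of Gata3 in T and NK cells is known far 3′ of the mouse gene, and whether any of these islands lies on it was not tested.

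Both BCL11 genes bordered long stretches without an island. Bcl11b lies inside one of 2.17 Mb, and the one that begins after the Bcl11a island is 2.13 Mb long and holds the rest of that gene. Of 16562 stretches between neighbouring islands, 187 were at least as long as that of Bcl11b. As background, a distal enhancer of Bcl11b in T cells lies in the gene-poor region 3′ of the gene. On that low-coordinate side the nearest island lay 1899 kb away and was assigned to Vrk1, with 28 peak-side and 43 control-side reads. With at least 8 peak-side reads per island, weaker sites would not appear in the table.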
